A study of Rattus norvegicus with 9 samples.

Results

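The bile acid synthesis and transport genes were 10 named genes of the liver: Cyp7a1, Cyp8b1, Cyp27a1, Abcb11, Abcb4, Slc10a1, Slco1b2, Nr0b2, Nr1h4 and Baat. They were found on the array through the RefSeq entry that each probe carries, among 13438 genes that could be named in this way. Of the 10 genes, 9 had a probe, 1 each, and all 9 probes were tested. Baat, the enzyme that conjugates bile acids to taurine or glycine, had no probe with a matching RefSeq entry and is not analysed here.

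Liver RNA came from male Wistar rats in 3 groups of 3, with 1 one-colour array per rat. The control rats were neither irradiated nor treated. The TBI rats received total-body irradiation of 6.5 Gy from a 60Co source at 2 Gy/min. The HSC + TBI rats received Hong Shan Capsule (HSC), a herbal medicine, by gavage on 3 days and then the same irradiation. The HSC dose stands as 30 mg/kg/day in the sample labels and as 10 g/kg/day in the series design, and which one is right was not settled. All livers were taken at 24 h. No array held an unirradiated rat given HSC, so an effect of HSC alone cannot be told apart from its effect under irradiation. Age and time of day at collection were not given in the sources used here.

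Bile acids are made from cholesterol in hepatocytes. The classical route starts with Cyp7a1, the rate-limiting hydroxylase, and Cyp8b1 decides how much cholic acid is formed, while Cyp27a1 opens the alternative route. Hepatocytes take bile acids back from portal blood through Slc10a1 (NTCP) and organic anion carriers such as Slco1b2, and export them into bile through Abcb11 (BSEP), with Abcb4 supplying the phosphatidylcholine that keeps bile from damaging the ducts. The bile acid receptor Nr1h4 (FXR) induces Nr0b2 (SHP), an atypical nuclear receptor without a DNA-binding domain that holds down transcription of Cyp7a1 and Cyp8b1.

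The values below are log2 signals after quantile normalization, on which a difference of 1 is a 2-fold ratio. They are compared only within a probe. A gene was called when its limma p-value, adjusted by Benjamini-Hochberg over all 25369 tested probes, was under 0.05 and its change was at least 1.5-fold. The share of probes well above background ran from 56.6% to 59.3% for control arrays, from 63.6% to 69.5% for TBI arrays and from 58.7% to 60.5% for HSC + TBI arrays, and the part of this difference in the results was not tested. Control and TBI arrays lay on 1 slide each and HSC + TBI arrays on 2 slides, so slide and group cannot be told apart. The 10 hepatocyte markers were all measured, each well above background on every array. None was called by limma in any comparison. At an unadjusted p under 0.05 there were 2 in TBI against control and 0 in the others, beside 25.5%, 19.6% and 16.3% of all probes. The summed linear signal of these markers overlapped among the 3 groups (1580960 to 1639800 in control, 1515020 to 1716570 in TBI and 1567320 to 1641750 in HSC + TBI). The brightest probes dominate these marker sums. Quantile normalization holds such probes near the same values on each array, with Tf at 18.16 on all 3 HSC + TBI arrays. The overlap of the sums therefore cannot test hepatocyte content. Whole liver was measured, so fewer cells of a type and less RNA per cell cannot be told apart.

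In TBI against control, 3 of the 9 genes were called, compared with 7.25% of all tested probes. Nr1h4 and Abcb4 rose (higher calls made up 3.54% of all probes) and Nr0b2 fell (lower calls, 3.71%). In HSC + TBI against control, 1 of 9 was called, compared with 3.23% of all probes. It was Cyp7a1, which rose (higher calls 1.19%, lower calls 2.05%). Between HSC + TBI and TBI no gene of the 9 was called by limma, compared with 0.796% of all probes (0.233% higher and 0.564% lower). At an unadjusted limma p under 0.05 the counts were 5, 4 and 2 of 9, beside 25.5%, 19.6% and 16.3% of all probes. By the methods' t-test at its unadjusted threshold they were 3, 3 and 0, beside 8.36%, 6.67% and 3.67% of all probes. Both irradiated groups were compared with the same 3 control rats. The median log2 difference of the 9 genes was 0.16, 0.28 and 0.13 in the 3 comparisons, beside -0.0061, 0.048 and 0.058 over all tested probes.

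**Figure D1:**
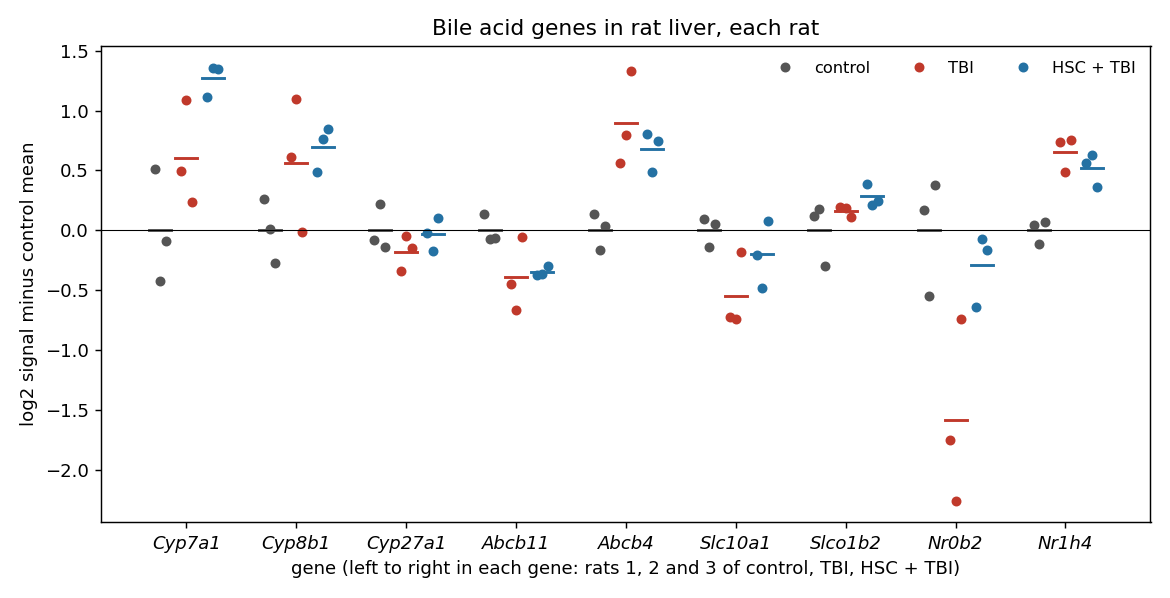
Log2 signal of each of the 9 measured bile acid genes minus its control mean (y axis), with 1 point per rat and a bar at each group mean. The 3 TBI rats lie below all control rats for Nr0b2 and above them for Abcb4 and Nr1h4, and the 3 HSC + TBI rats lie above both other groups for Cyp7a1.

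Groups did not overlap for 4 of 9 genes in TBI against control, where 28.9% of all probes did the same. The 4 were Abcb4 and Nr1h4, higher in every TBI rat, and Slc10a1 and Nr0b2, lower in every TBI rat. HSC + TBI and control rats did not overlap for 6 of 9 genes (31.7% of all probes): Cyp7a1, Cyp8b1, Abcb4, Slco1b2 and Nr1h4 were higher in every HSC + TBI rat and Abcb11 was lower. HSC + TBI and TBI rats did not overlap for 3 of 9 (21.4% of all probes), with Cyp7a1, Slco1b2 and Nr0b2 higher in every HSC + TBI rat. Only the 4 changes named above as risen or fallen passed the test.

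Cyp7a1, which sets the rate of classical synthesis, had log2 signals of 11.82, 10.88 and 11.22 in the control rats, 11.80, 12.40 and 11.54 in the TBI rats and 12.42, 12.67 and 12.66 in the HSC + TBI rats. The HSC + TBI rats were all above the other 6 rats, and the TBI rats overlapped with control. HSC + TBI rats averaged 12.58 ± 0.14 and control rats 11.31 ± 0.48 (SD, n = 3 each). Cyp7a1 rose by 1.27 ± 0.28 (SE) in HSC + TBI against control, which is 2.42-fold (adjusted p = 0.0451). The difference between TBI and control was 0.60, with a 95% confidence interval of -0.03 to 1.23 (adjusted p = 0.213). That between HSC + TBI and TBI was 0.67 (0.04 to 1.30, adjusted p = 0.28), so the data do not show that the rise against control was larger with HSC than without it. The call in HSC + TBI against control was lost without control rat 2 (adjusted p = 0.138), control rat 3 (0.154), TBI rat 1 (0.0546), or HSC + TBI rat 1 (0.120), 2 (0.142) or 3 (0.125), while the difference stayed between 1.06 and 1.53. It was also lost when dim probes were tested too (adjusted p = 0.0902) and with the replicate number as a block (0.0863).

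Cyp8b1, which steers synthesis toward cholic acid, had log2 signals of 11.59, 11.35 and 11.06 in control rats, 11.95, 12.43 and 11.32 in TBI rats and 11.82, 12.10 and 12.18 in HSC + TBI rats. Every HSC + TBI rat and 2 of 3 TBI rats were above all control rats, and TBI rat 3 lay among the controls. Neither difference from control passed the test: it was 0.57 in TBI (95% confidence interval -0.05 to 1.18, adjusted p = 0.232) and 0.70 in HSC + TBI (0.08 to 1.31, adjusted p = 0.202). Without TBI rat 3 the TBI difference was 0.86 and passed (adjusted p = 0.0460). Cyp27a1, the mitochondrial enzyme of the alternative route, ranged from 11.67 to 12.22 over the 9 rats with the groups overlapping. Its differences were -0.18 (-0.50 to 0.15) in TBI and -0.03 (-0.36 to 0.29) in HSC + TBI against control, so its intervals do not reach a log2 change of 0.58 (a 1.5-fold change) in either direction.

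Among the export genes, Abcb4, the canalicular phosphatidylcholine floppase, had log2 signals of 8.98, 8.69 and 8.89 in control rats, 9.42, 9.65 and 10.18 in TBI rats and 9.65, 9.34 and 9.60 in HSC + TBI rats. All 6 irradiated rats were above all 3 control rats, and the irradiated groups overlapped. Abcb4 rose by 0.90 ± 0.20 in TBI against control, which is 1.86-fold (adjusted p = 0.0317). The difference of HSC + TBI from control, 0.68 (95% confidence interval 0.22 to 1.14), did not pass (adjusted p = 0.113), and that of HSC + TBI from TBI was -0.22 (-0.68 to 0.24, adjusted p = 0.625). The TBI call was lost without control rat 1 (adjusted p = 0.0609), 2 (0.0954) or 3 (0.0902), TBI rat 2 (0.0665) or HSC + TBI rat 1 (0.0508) or 3 (0.0509), with the difference between 0.68 and 1.06. Without TBI rat 3 the HSC + TBI difference from control also passed (adjusted p = 0.0415).

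Abcb11, the bile salt export pump, had log2 signals of 12.18, 11.97 and 11.97 in control rats, 11.59, 11.37 and 11.98 in TBI rats and 11.67, 11.67 and 11.74 in HSC + TBI rats. The HSC + TBI rats and 2 of 3 TBI rats were below every control rat, while TBI rat 3 lay within the control range. Its differences from control did not pass, at -0.39 in TBI (95% confidence interval -0.75 to -0.02, adjusted p = 0.175) and -0.35 in HSC + TBI (-0.71 to 0.02, adjusted p = 0.281).

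For uptake from blood, Slc10a1 (NTCP), the sodium-dependent carrier, had log2 signals of 14.64, 14.40 and 14.59 in control rats, 13.82, 13.80 and 14.36 in TBI rats and 14.34, 14.06 and 14.62 in HSC + TBI rats. All TBI rats were below all control rats, and the HSC + TBI rats overlapped with both groups. The TBI difference of -0.55 (95% confidence interval -1.0 to -0.10) did not pass with all rats (adjusted p = 0.126) and passed without TBI rat 3, at -0.73 (adjusted p = 0.0383). Slco1b2, a sodium-independent carrier of organic anions, stayed between 13.63 and 14.32 over all rats. Its differences from control were 0.16 (-0.16 to 0.49) in TBI and 0.28 (-0.04 to 0.61) in HSC + TBI, and neither passed.

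Nr0b2 (SHP), the repressor of Cyp7a1 and Cyp8b1, spread most among the 9 genes. Its log2 signals were 14.84, 14.12 and 15.05 in control rats, 12.92, 12.41 and 13.93 in TBI rats and 14.03, 14.60 and 14.51 in HSC + TBI rats. Every TBI rat was below every other rat, with TBI rat 3 just under the lowest control and HSC + TBI rats, and the HSC + TBI rats lay in or just under the control range. Group means were 14.67 ± 0.49, 13.09 ± 0.77 and 14.38 ± 0.31 (SD, n = 3 each). Nr0b2 fell by 1.58 ± 0.39 in TBI against control, which is 2.99-fold lower (adjusted p = 0.0440). The HSC + TBI difference from control was -0.29 (95% confidence interval -1.18 to 0.60, adjusted p = 0.733). The direct difference of HSC + TBI from TBI, 1.29 (0.40 to 2.18), did not pass (adjusted p = 0.169). Without TBI rat 3 that direct difference was 1.71 and passed (adjusted p = 0.0415).

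The fall of Nr0b2 in TBI kept its direction without any single rat (-2.00 to -1.24). Its call was lost without control rat 1 (adjusted p = 0.114) or 3 (0.142), TBI rat 1 (0.0913) or 2 (0.108), or HSC + TBI rat 1 (0.0619), 2 (0.0610) or 3 (0.0668), and when dim probes were tested too (0.0728). With only control and TBI rats in the fit, none of the 3 genes called in that comparison passed (adjusted p = 0.0928 for Nr0b2, 0.0728 for Abcb4 and 0.0519 for Nr1h4).

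Nr1h4 (FXR), the bile acid receptor itself, had log2 signals of 9.16, 9.0 and 9.19 in control rats, 9.85, 9.60 and 9.87 in TBI rats and 9.67, 9.74 and 9.48 in HSC + TBI rats. All irradiated rats were above all control rats, and the irradiated groups overlapped. Nr1h4 rose by 0.66 ± 0.13 in TBI, which is 1.58-fold (adjusted p = 0.0188), and its HSC + TBI difference of 0.52 (95% confidence interval 0.23 to 0.81) did not pass (adjusted p = 0.0692). The TBI call was lost without control rat 2 (adjusted p = 0.0643) or 3 (0.0512). Under another background correction, normexp, its TBI difference was 0.50, under the 1.5-fold limit. Nr1h4 rose and Nr0b2, a gene that its protein is known to induce, fell in the same comparison.

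**Figure D2:**
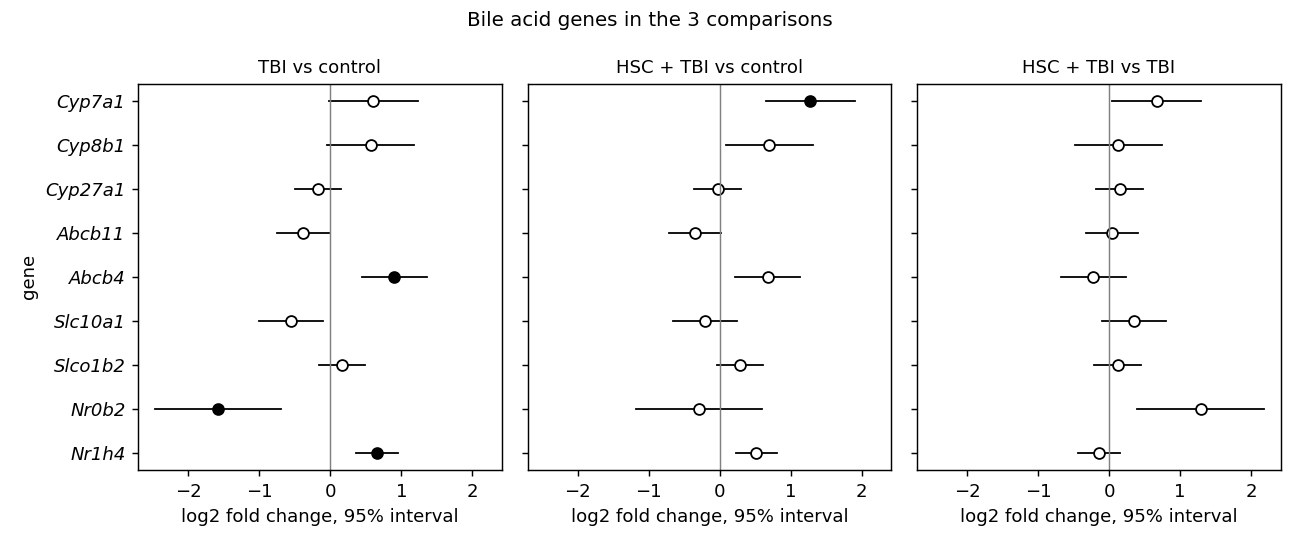
Log2 fold change (x axis) of each of the 9 genes (y axis) in the 3 comparisons, with points at the limma estimate, lines for the 95% confidence interval and filled points for called genes. Of the intervals, that of Nr0b2 is the widest, and no point is filled in HSC + TBI against TBI.

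TBI rat 3 lay nearest to the control mean of the 3 TBI rats for 6 of the 9 genes: Cyp7a1, Cyp8b1, Abcb11, Slc10a1, Slco1b2 and Nr0b2. It was the farthest from control for Abcb4 and Nr1h4. This rat also had the highest share of probes above background, 69.5%, and the part of that in its values was not tested. Without it, 5 of the 9 genes were called in TBI against control, 2 in HSC + TBI against control and 1 in HSC + TBI against TBI. Calls over all probes also went up without this rat, to 9.43%, 3.73% and 2.33%.

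**Figure D3:**
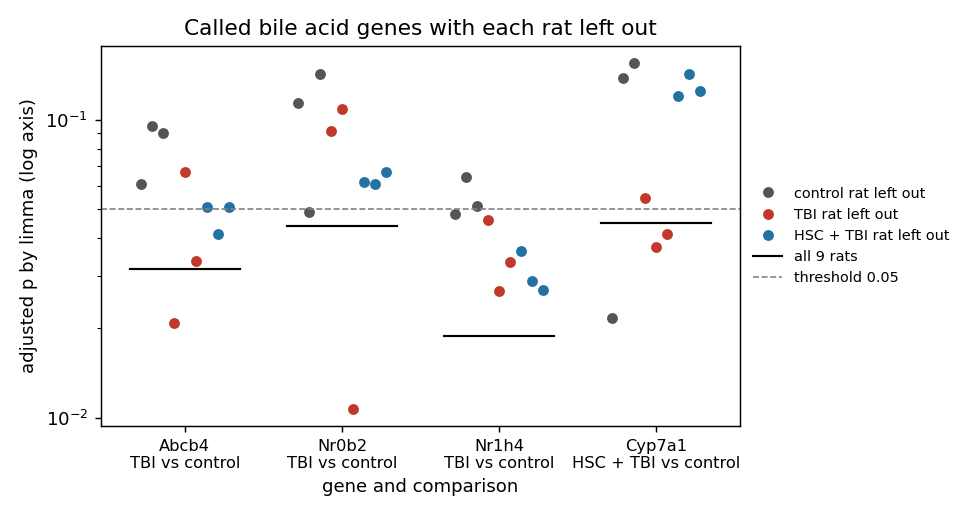
Adjusted p by limma (y axis, log scale) of the 4 called results when each of the 9 rats is left out in turn, coloured by the group of that rat, with a black line at the value from all 9 rats and a dashed line at 0.05. Points above the dashed line are lost calls, and Nr1h4 has the fewest, 2.

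The promoters of the 2 genes called in TBI against control that had an entry in the RefSeq promoter table (build GRCr8) are shown because these genes moved in opposite directions. Entries were found for 7 of the 10 genes, and Cyp7a1, Abcb11 and Nr1h4 had none. Each line gives the 250 bases before the annotated start, 5′ to 3′ on the strand of the gene. That of Nr0b2 is chr5:151062910-151063159 on the plus strand and that of Abcb4 chr4:26164146-26164395 on the minus strand. Capitals mark matches to a motif on either strand.
Nr0b2: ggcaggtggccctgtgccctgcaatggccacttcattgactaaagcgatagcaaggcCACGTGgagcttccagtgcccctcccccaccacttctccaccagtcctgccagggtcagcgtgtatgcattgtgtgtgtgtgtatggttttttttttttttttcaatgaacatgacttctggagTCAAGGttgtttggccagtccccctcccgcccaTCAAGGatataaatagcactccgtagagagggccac
Abcb4: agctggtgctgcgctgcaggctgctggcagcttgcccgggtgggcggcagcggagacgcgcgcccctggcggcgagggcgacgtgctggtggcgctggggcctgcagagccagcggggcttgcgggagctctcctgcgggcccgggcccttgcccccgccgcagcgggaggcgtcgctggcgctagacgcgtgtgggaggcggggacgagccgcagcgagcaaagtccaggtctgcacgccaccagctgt

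The letters searched were TCAAGG, the core bound by the receptor Nr5a2 (LRH-1), AGGTCA, the nuclear receptor half-site, and CACGTG, the E-box read by clock and other basic helix-loop-helix factors, each on both strands. TCAAGG stood in 12.6% of 33469 rat promoter windows of this length. Nr0b2 held it in 2 places, starting 69 and 36 bases before the start, and no other of the 7 windows held it. CACGTG stood in 5.59% of windows and, of the 7, in that of Nr0b2 alone, starting 193 bases before the start. AGGTCA stood in 14.1% of windows and in those of Cyp27a1, Slc10a1 and Slco1b2. The Abcb4 window held none of the 3. A match describes letters and does not show that a factor binds there.

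Further genes of the pathway were described from 3 lists that held 55 genes, of which 48 had a probe and 44 were tested. In TBI against control 7 of 44 were called, 2 higher and 5 lower, with a median log2 difference of -0.12. In HSC + TBI against control 3 of 44 were called, 1 higher and 2 lower (median 0.03), and in HSC + TBI against TBI 2 of 44, both higher (median 0.21). The same calls took 7.25%, 3.23% and 0.796% of all probes. A gene with several probes was represented by its brightest.

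Of the other synthesis genes, 13 of 15 were tested, and 1 was called in TBI, about the 7.25% share of all probes. None was called in HSC + TBI against control or against TBI, with 1 and 2 of 13 at an unadjusted limma p under 0.05 (19.6% and 16.3% of all probes) and 0 and 2 by the methods' t-test at its unadjusted threshold. Cyp7b1, the oxysterol hydroxylase of the alternative route, had log2 signals of 4.90, 5.62 and 5.42 in control rats, 6.59, 6.94 and 6.16 in TBI rats and 5.96, 5.40 and 5.34 in HSC + TBI rats. All TBI rats were above all others. Cyp7b1 rose by 1.25 ± 0.27 in TBI (2.38-fold, adjusted p = 0.0272), and the difference of HSC + TBI from TBI was -1.0 (adjusted p = 0.135). With normexp the TBI difference was 0.46 and the call was lost. The call was also lost without control rat 1 (adjusted p = 0.0748) or 3 (0.0754), TBI rat 1 (0.0580) or 2 (0.0787). Both probes of Akr1d1, the reductase of the steroid ring, were higher in every irradiated rat than in every control rat, and only the dimmer was called. By limma it differed by 0.71 in TBI (adjusted p = 0.0425) and 0.90 in HSC + TBI (0.0307). The brighter differed by 0.49 (adjusted p = 0.161) and 0.55 (0.167).

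Of the other transport genes, 15 of 18 were tested, with 4 called in TBI and 2 in HSC + TBI against control, and 2 in HSC + TBI against TBI (7.25%, 3.23% and 0.796% of all probes). Abcc2 (MRP2), the canalicular exporter of conjugated bilirubin and glutathione conjugates, had log2 signals of 14.37, 14.17 and 14.28 in control rats, 13.37, 13.26 and 13.37 in TBI rats and 13.77, 13.65 and 13.46 in HSC + TBI rats. Every irradiated rat was below every control rat. Abcc2 fell by 0.94 ± 0.12 in TBI (adjusted p = 0.00393), a call kept with any rat left out, and by 0.65 ± 0.12 in HSC + TBI (adjusted p = 0.0271). The second call was lost under a 75th percentile scaling (-0.49, adjusted p = 0.0800) and without control rat 1 (adjusted p = 0.0637), 2 (0.0626) or 3 (0.0964) or HSC + TBI rat 1 (0.0603), 2 (0.0864) or 3 (0.0835).

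Abcg8, which pairs with Abcg5 to export cholesterol into bile, had log2 signals of 5.63, 5.65 and 5.28 in control rats, 4.34, 4.33 and 4.2 in TBI rats and 5.28, 5.14 and 5.43 in HSC + TBI rats. The TBI rats were below all others, and the HSC + TBI rats overlapped with control. Abcg8 fell by 1.23 ± 0.14 in TBI (2.34-fold lower, adjusted p = 0.00238) and was 0.99 ± 0.14 higher in HSC + TBI than in TBI (adjusted p = 0.0270). With normexp the differences were -0.26 and 0.17, with neither called. The direct call was also lost without TBI rat 2 (adjusted p = 0.0855) or HSC + TBI rat 1 (0.116) or 3 (0.0961), with the replicate block (0.0563), and with only the compared groups in the fit (0.0603). A second Abcg8 probe was not well above background on any array, and its partner Abcg5 differed from control by -0.05 in TBI (95% confidence interval -0.88 to 0.77).

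Abcb1a and Abcb1b, close paralogs that encode P-glycoprotein and whose probes may share signal, went opposite ways in TBI. Abcb1b had log2 signals of 5.05, 5.0 and 4.44 in control rats, 7.21, 7.09 and 7.89 in TBI rats and 8.66, 7.92 and 7.77 in HSC + TBI rats. Every irradiated rat was above every control rat. Abcb1b rose by 2.56 ± 0.30 in TBI (5.91-fold, adjusted p = 0.00273) and by 3.28 ± 0.30 in HSC + TBI (9.75-fold, adjusted p = 0.00110), and both calls held without any single rat. With normexp the rises were 1.03 and 1.46 and were still called.

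Abcb1a had log2 signals of 4.83, 4.35 and 4.28 in control rats, 3.08, 3.39 and 3.74 in TBI rats and 4.71, 4.77 and 5.11 in HSC + TBI rats, with 2 of the 3 TBI arrays well above background. The TBI rats were below all others. It fell by 1.09 ± 0.22 in TBI (adjusted p = 0.0205) and was 1.46 ± 0.22 higher in HSC + TBI than in TBI (adjusted p = 0.0303). With normexp these differences were -0.16 and 0.27 and neither was called. Without control rat 1 or TBI rat 2 the fall missed the threshold (adjusted p = 0.0580 and 0.0589). The direct call was lost without control rat 2 (0.0542) or 3 (0.0516), TBI rat 2 (0.1), or HSC + TBI rat 1 (0.104), 2 (0.0631) or 3 (0.103), when dim probes were tested too (0.0601), with the replicate block (0.0586), and with only the compared groups in the fit (0.0656).

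Of 22 regulators, 16 were tested, and the 2 called in TBI (7.25% of all probes) were Dbp and Nr1d1, both genes of the circadian clock. Dbp alone was called in HSC + TBI against control, and none was called by limma between the irradiated groups (7 of 16 at an unadjusted p under 0.05, beside 16.3% of all probes, and 2 by the methods' t-test at its unadjusted threshold). Dbp, a transcription factor known to act on the Cyp7a1 promoter, had log2 signals of 13.32, 13.32 and 13.33 in control rats, 11.13, 11.87 and 11.22 in TBI rats and 12.51, 12.20 and 12.04 in HSC + TBI rats. The 3 groups did not overlap, with TBI lowest. Dbp fell by 1.92 ± 0.21 in TBI (adjusted p = 0.00196) and by 1.07 ± 0.21 in HSC + TBI (adjusted p = 0.0307). The difference of HSC + TBI from TBI was 0.85 and did not pass (adjusted p = 0.108). The TBI call held without any single rat. The HSC + TBI call was lost without control rat 1 (adjusted p = 0.0634), 2 (0.0987) or 3 (0.107) or HSC + TBI rat 1 (0.0582), 2 (0.103) or 3 (0.0955), when dim probes were tested too (0.0603) and with the replicate block (0.0520).

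Nr1d1 (REV-ERBα), a repressor of the clock that is also known to affect Cyp7a1, had log2 signals of 9.60, 9.36 and 9.85 in control rats, 8.81, 8.96 and 8.66 in TBI rats and 9.10, 9.01 and 9.25 in HSC + TBI rats. Every irradiated rat was below every control rat. Nr1d1 fell by 0.80 ± 0.15 in TBI (adjusted p = 0.0183), a call lost without control rat 1 (0.0531) or 3 (0.0598) and with normexp (-0.58, just under the 1.5-fold limit). With only control and TBI rats in the fit, it was lost too (0.0542), as were those of Cyp7b1 (0.0533) and Abcb1a (0.0524). Its HSC + TBI difference was -0.48 (adjusted p = 0.13). The part of these clock genes in the values of Cyp7a1 and Nr0b2 was not tested.

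The 16 regulators had a median difference of -0.44 in TBI against control, with 11 of 16 below control on average. Nr1i2 (PXR) and Mafg had adjusted p-values under the threshold in TBI (0.0303 and 0.0314) with changes of less than 1.5-fold (-0.55 and -0.44), and Mafg likewise in HSC + TBI against control (-0.46, adjusted p = 0.0413). A dimmer probe of Mafg differed from control by -0.53 in TBI (adjusted p = 0.0171) and by -0.36 in HSC + TBI (adjusted p = 0.0974). Nr5a2 (LRH-1), an activator of Cyp7a1, Cyp8b1 and Nr0b2, was at 9.61 ± 0.08 in control rats, 9.16 ± 0.07 in TBI rats and 9.37 ± 0.20 in HSC + TBI rats. Its TBI difference of -0.45 (95% confidence interval -0.74 to -0.16) did not pass (adjusted p = 0.0685). The probes of Vdr and Fgf15 were not well above background on any array, and that of Gpbar1 was so on 2 TBI arrays alone, so these 3 were not tested.

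**Figure D4:**
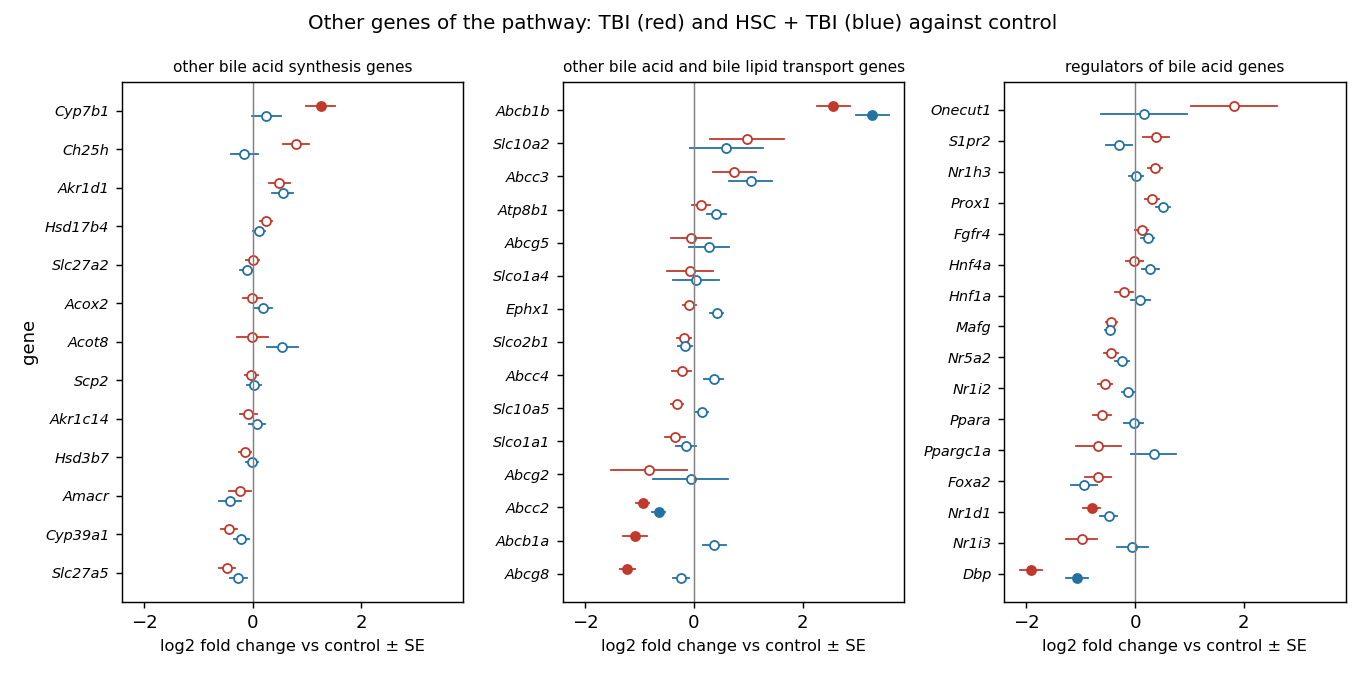
Log2 fold change against control with its SE (x axis) for the 44 tested genes of the 3 further lists (y axis), TBI in red and HSC + TBI in blue, with filled points for called genes. Abcb1b stands far to the right in both groups, and Dbp and Abcg8 lie farthest to the left in TBI among called genes of their lists.

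Markers of other liver cells moved with the groups in part. The summed linear signal of 7 tested Kupffer cell markers was 58916 to 88607 in control rats, 60030 to 112573 in TBI rats and 41594 to 46352 in HSC + TBI rats. The HSC + TBI rats were thus below all others, although none of the 7 was called by limma. At an unadjusted p under 0.05 there were 1, 3 and 6 in the 3 comparisons, beside 25.5%, 19.6% and 16.3% of all probes. For 4 tested sinusoidal endothelial markers the sum was 12578 to 15507 in control, 16603 to 20447 in TBI and 15372 to 17077 in HSC + TBI rats, so all TBI rats were above all control rats. Kdr and Lyve1 carry this sum, with control means of 13.56 and 11.05 beside 5.13 for Pecam1 and 7.52 for Cdh5. None of the 4 was called (1, 2 and 0 at an unadjusted p under 0.05, beside the same 25.5%, 19.6% and 16.3% of all probes). Lyve1 had an adjusted p of 0.0469 in TBI with a difference of 0.53, under the 1.5-fold limit. The TBI difference was 0.33 for Kdr, whose rats overlapped with control, 0.12 for Pecam1 and -0.27 for Cdh5. In HSC + TBI against control Pecam1 and Cdh5 were lower (-0.40 and -0.67) and Kdr and Lyve1 higher (0.15 and 0.40). The sum of 5 tested leukocyte markers was 811 to 1570 in control, 467 to 1191 in TBI and 285 to 463 in HSC + TBI rats. By the brightest probe, 2 of the 5 were called lower in both irradiated groups, beside 3.71% and 2.05% of all probes. Nkg7, the brightest of the 5 (control mean 9.53), differed by -0.36 in TBI and -1.72 in HSC + TBI and was not called. Lck went the other way, at 0.55 and 0.41, and was not called. The 2 called markers passed the filter on dim probes through the control group alone, where they are high, so their calls are no independent support. They were Cd79b, at least 4.97-fold lower in TBI and at least 2.90-fold lower in HSC + TBI, and Cd3g, which fell by 3.60 on the log2 scale in TBI and was at least 11.4-fold lower in HSC + TBI. A bound was given where no array of the dim group was well above background. A dimmer probe of Ptprc, the pan-leukocyte marker, was called lower in HSC + TBI against control (-1.28, adjusted p = 0.0157) and against TBI (-1.75, adjusted p = 0.0149), while its brightest probe was not (-1.29 and -1.08). In TBI against control that dimmer probe differed by 0.47 and the brightest by -0.21, with neither called. Of 7 stellate cell markers Lrat alone was called lower in TBI, beside 3.71% of all probes. In TBI 3 of the 7 were higher and 4 lower on average (median -0.03). None of 6 tested cholangiocyte markers was called by limma by its brightest probe (0, 1 and 0 at an unadjusted p under 0.05, beside 25.5%, 19.6% and 16.3% of all probes). In TBI 2 of the 6 were higher and 4 lower (median -0.12). A dimmer probe of Cldn4 was called higher in TBI (0.98, adjusted p = 0.0229), while its brighter probe differed by 0.21 (adjusted p = 0.610). The part of these cells in the results for the bile acid genes was not tested.

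Hepatocytes near the central vein and near the portal tract differ in bile acid synthesis, Cyp7a1 being mostly pericentral. Of 11 tested pericentral and 11 tested periportal genes none was called by limma in any comparison. At an unadjusted p under 0.05 there were 2, 1 and 0 pericentral genes and 1, 2 and 0 periportal genes, beside 25.5%, 19.6% and 16.3% of all probes. Their median log2 differences from control in TBI were 0.39 and -0.16, and in HSC + TBI 0.14 and -0.02.

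Among the 5 genes whose log2 signals over the 9 arrays were most like that of Cyp7a1 were Gss (Pearson r = 0.97), Wfdc3 (0.96), Tfrc (0.94) and Pias3 (0.94), out of 10965 named probes above background on all arrays. For Nr0b2 the 5 were Scamp1 (0.94), Itgb1bp1 (0.94), 2700097O09Rikl (0.93), Med31 (0.92) and Cxhxorf38 (0.92). These correlations describe 9 arrays that share group means and scaling. They were the highest of many.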

How the data were processed

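Per the file headers, the authors read spot intensities with Agilent Feature Extraction 10.7.3.1 and deposited linear processed signal intensities, median spot and background intensities, and spot flags. They also deposited 1 log2 value per probe, normalized by quantiles over the arrays.

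Here, control spots and outlier spots were left out, processed signals were set to at least 1, log2 transformed, quantile normalized over 9 arrays and averaged per probe (41012 probes). Testing was limited to 25369 probes that stood well above background (over 0.5 of spots) throughout some group of 3 arrays. Values lay a median of 0.03 from those deposited by the authors. One limma model (limma 3.58.1, R 4.3.3) held the 3 group means. Calls needed p under 0.05 after Benjamini-Hochberg adjustment and at least 1.5-fold. Each array was taken as 1 rat. The limma p-values rest on the spread among rats within groups, pooled over the 3 groups and moderated across probes. The precision is limited by the 3 rats per group, and depth has no meaning for arrays.

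Probes were named through RefSeq entries. The array was designed on rn4, so GRCr8 served for names and promoters only. The text names all members, genes of the 3 further lists called by their brightest tested probe, and the 5 genes most like Cyp7a1 and Nr0b2, of which 1 is not reported here. Members and lists were chosen with earlier results of these data known. Genes named beyond this rule (Akr1d1, Abcg5, Nr1i2, Mafg, Nr5a2 and the markers) were chosen after their values were seen.

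Same-numbered rats were checked for shared deviations. Their correlations were 0.191, 0.117 and 0.0977 for TBI and control and -0.144 to 0.0146 for the other pairs, so the numbers were not taken as pairs. The script was tested on simulated data. Alternatives were another scaling, normexp (offset 50) on median spot and background intensities, the authors' values, other filters and kept outlier spots. Further ones were fits of 2 groups, the methods' t-test (with a 1.5-fold ratio of means), no minimum fold, and replicate and slide blocks. The mean of probes and each rat left out completed them. The paper names a simple t-test, and unequal variances were a choice made here.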

Additional observations from a re-analysis of the deposited data

Results flagged for a closer look

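The difference between the irradiated groups itself passed the limma test for 2 genes of the pathway, both transporters. Abcg8 was 0.99 higher (log2) in HSC + TBI than in TBI rats (adjusted p = 0.0270), with differences from control of -1.23 in TBI and -0.24 in HSC + TBI. Abcb1a was 1.46 higher in HSC + TBI than in TBI rats (adjusted p = 0.0303), with differences from control of -1.09 and 0.38. With normexp the direct differences were 0.17 and 0.27 and were not called. Both genes were dim in TBI rats, at 4.34, 4.33 and 4.2 for Abcg8 and 3.08, 3.39 and 3.74 for Abcb1a. Abcb1a was well above background on only 2 of the 3 TBI arrays. With each of the 9 rats left out in turn, the direct call was kept 6 times for Abcg8 and 3 times for Abcb1a. Both were also lost with the replicate block and with only the compared groups in the fit. The part of low signal in these differences was not tested.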

How the results depend on the processing

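Of the 9 bile acid genes, 3 were called in TBI and 1 in HSC + TBI when each was set against control, and 0 between the irradiated groups; of the 44 further genes the counts were 7, 3 and 2. Over all probes the main fit called 1839, 820 and 202. Leaving out 1 rat gave 0 to 5, 0 to 2 and 0 to 1 of the bile acid genes and 4 to 9, 1 to 4 and 0 to 2 of the further genes. Calls over all probes then ran from 888 to 2392, from 317 to 1028 and from 28 to 948. With normexp the further genes numbered 3 in TBI against control and 0 in HSC + TBI against TBI, where calls over all probes fell to 665 and 6. Without the filter on dim probes, 0 bile acid genes were called in HSC + TBI against control and 1 further gene in HSC + TBI against TBI, and with probes above background on all 9 arrays the latter was 1 too. Calls over all probes were 600 and 109 without the filter and 40 in the latter case. With only the compared groups in the fit, TBI against control gave 0 bile acid and 4 further genes, HSC + TBI against control 2 bile acid genes, and HSC + TBI against TBI 0 further genes. Over all probes these fits called 1174, 1065 and 49. The methods' t-test without adjustment gave 3 bile acid and 5 further genes in HSC + TBI against control and 6 further genes in HSC + TBI against TBI, and with adjustment 0 in each. Over all probes it called 1693 and 932 in these comparisons without adjustment. With adjustment it called only 7, 2 and 0 of all probes in the 3 comparisons, so its 0 is no result about these genes. The cause of these shifts was not tested.

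The replicate numbers were not taken as pairs of rats. Same-numbered TBI and control rats correlated at 0.191, 0.117 and 0.0977, and the other pairs of these groups at -0.121 to 0.0171. A factor shared by same-numbered arrays of these groups was not tested. With the replicate block, 0 bile acid genes were called in HSC + TBI against control and 0 further genes in HSC + TBI against TBI, and TBI against control gave 3 and 9. Calls over all probes with this block were 780, 97 and 1575 in these comparisons. Every rat correlated best with its own number in TBI and control alone. With slide as a random block, whose estimated correlation was -0.327, bile acid genes numbered 4, 3 and 2 and further genes 15, 5 and 11, while calls over all probes went from 1839, 820 and 202 to 4528, 2573 and 2256.

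No direction of a called value reversed under any alternative. Under 75th percentile scaling the share of higher calls over all probes went from 29.2% to 13.7% in HSC + TBI against TBI and from 48.9% to 57.5% in TBI against control. Differences of Abcg8, Abcb1a, Cyp7b1 and Abcb1b were over 1.5 times smaller under normexp, which adds an offset of 50 to each signal. These genes were dim, with control means of 4.49 to 5.52. For Abcc2 and Dbp, at 14.27 and 13.32 in control rats, the TBI difference from control changed little (-0.94 to -0.93 and -1.92 to -1.88). The part of signal level in this was not tested. With 3 rats a group, differences such as that of Nr0b2 between the irradiated groups (95% confidence interval 0.40 to 2.18) are known only roughly.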
